A study of Mus musculus with 19 samples.

Results

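Expression of 10 genes of vesicle priming and the presynaptic active zone was described in E13.5 mouse cerebral cortex, out of 51912 genes in each count table. The genes were *Unc13a*, *Unc13b* and *Unc13c*, *Rims1*, *Rims2* and *Rims3*, *Rimbp2*, *Bsn*, *Pclo* and *Erc2*, found by gene identifier through the GENCODE annotation. All 10 were present in the tables of all 19 embryos. *Unc13b* and *Rims2* were chosen by their measured fall in both mutants, so their values in the mutants are a description and were not tested, and the other 8 genes were taken for their function. The embryos, of mixed C57BL/6 and 129 background, comprised 7 controls (ctrl), 5 Emx1-Cre mutants for *Ino80* (cKO-E) and 7 Emx1-Cre mutants for both *Ino80* and *Trp53* (dKO-E). *Ino80* encodes the catalytic subunit of a nucleosome remodeling complex, and *Trp53* encodes p53. The labels call the ctrl embryos controls without listing their alleles. Emx1-Cre recombines in cortical progenitors and thus in the neurons and astrocytes they produce, while interneurons, microglia and endothelial cells of the same tissue keep both genes.

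The active zone is the patch of presynaptic membrane at which synaptic vesicles dock, are primed and fuse. Munc13 proteins, encoded by the *Unc13* genes, prime docked vesicles by helping the fusion machinery to assemble. RIM proteins, encoded by the *Rims* genes, bind Rab3 on vesicles, recruit Munc13 and hold calcium channels near the release site, to which RIM-binding proteins also link them. Bassoon, Piccolo and the ELKS family protein encoded by *Erc2* form the scaffold that these proteins attach to. Scaffold proteins of this kind are already made by young neurons and travel along growing axons before synapses form.

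Each library came from 1 embryo, with a total over genes of 820915 to 8095810 counts (median 2952788). Levels are given as CPM, counts scaled by library size after TMM normalization. The limit of 3 counts that a listed 0 allows was 0.37 to 3.73 CPM across the libraries, for counting error alone. *Ino80*, summed over the whole gene, was 110 to 134 CPM in ctrl, 147 to 182 in cKO-E and 161 to 201 in dKO-E, and *Trp53* averaged 43.9, 39.5 and 34.8 CPM, so these sums do not check the deletion of single exons. Markers of cortical neurons and progenitors were present, except that *Tubb3* and *Sox2* had 0 counts in every library and add nothing to the sums of their lists. In GENCODE M21, 0 of their exon bases were shared with another gene, the release and strand setting used for counting are not given in the sources used here, and the cause was not tested. Batch 1, as labelled, held 4 ctrl, 3 cKO-E and 4 dKO-E embryos, and batch 2 held 3, 2 and 2. The remaining dKO-E embryo, E, was the only embryo of batch 3. Females and males numbered 4 and 3 in ctrl, 4 and 1 in cKO-E, and 2 and 5 in dKO-E. The dKO-E embryos came from 2 litters, of which litter 1 also gave ctrl embryos, and embryos of both mutant genotypes were never littermates.

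In ctrl cortex, the genes spanned a wide range of levels per kb of exon, the length taken as the union of all annotated exons. *Erc2* was highest at 54.2 ± 8.02 CPM per kb (SD, n = 7), followed by *Rims2* at 44.1 ± 3.54. The lowest ctrl embryo for *Erc2* was at 44.3 CPM per kb and the highest for *Rims2* at 48.8, so these neighbours overlapped. *Rims1* followed at 17.6 ± 3.35 CPM per kb, below every ctrl value of *Rims2*. *Unc13b* was at 9.75 ± 0.619 CPM per kb and *Pclo* at 8.79 ± 1.48, and their embryos overlapped. *Bsn* at 5.38 ± 1.00 and *Unc13a* at 4.84 ± 0.832 CPM per kb also overlapped, and *Bsn* with a highest embryo at 7.18 also reached *Pclo* with a lowest of 6.89. *Rimbp2* at 1.62 ± 0.607 and *Rims3* at 1.51 ± 0.272 CPM per kb could not be separated. *Unc13c*, a Munc13 gene best known from the cerebellum, was lowest at 0.432 ± 0.195 CPM per kb, from 2 to 32 counts per ctrl library. Within the *Unc13* family *Unc13b* was thus the most abundant transcript of this stage, and within the *Rims* family *Rims2* was.

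**Figure D1:**
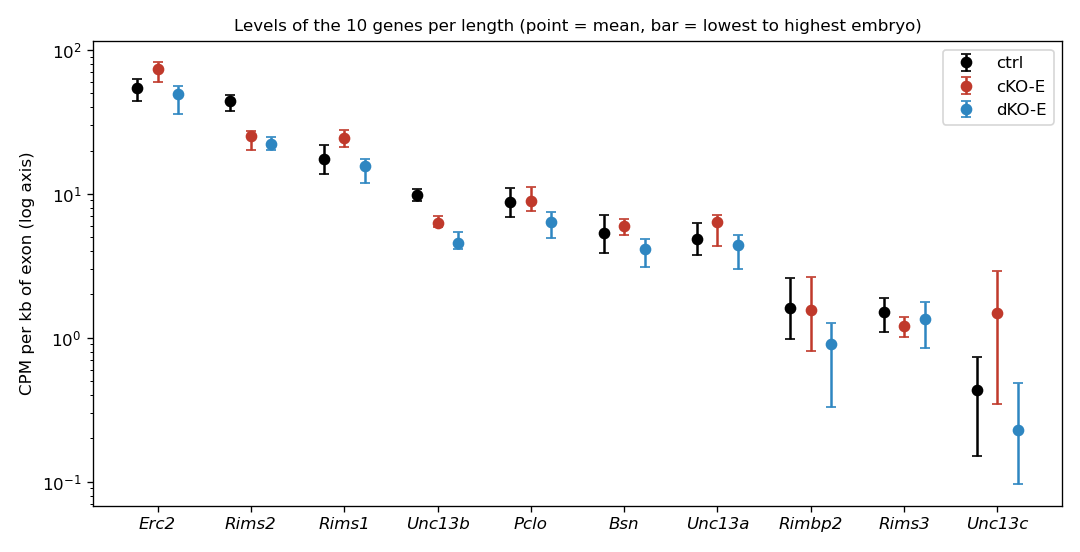
Levels of the 10 genes in CPM per kb of exon (log axis), ordered by the ctrl mean, for ctrl (n = 7), cKO-E (n = 5) and dKO-E (n = 7). Points are means and bars run from the lowest to the highest embryo, with *Erc2* highest at 54.2 CPM per kb in ctrl and *Unc13c* lowest at 0.432.

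*Unc13b* (ENSMUSG00000028456.18) encodes a Munc13 priming protein and lies on chromosome 4 of GRCm38 from 43058953 to 43264871 on the forward strand. In ctrl embryos its level was 213, 227, 227 and 247 CPM in A, B, C and D of batch 1 and 212, 204 and 221 in F, H and I of batch 2. In cKO-E it was 145, 141 and 160 CPM in A, B and C of batch 1 and 137 and 133 in D and E of batch 2. In dKO-E it was 101, 94.3, 96.7, 111, 103, 97 and 123 CPM in embryos A to G. The 3 groups did not overlap, with every ctrl embryo above every cKO-E embryo and every cKO-E embryo above every dKO-E embryo. Means were 222 ± 14.1 (SD, n = 7), 143 ± 10.5 (SD, n = 5) and 104 ± 10.2 CPM (SD, n = 7), log2 differences of -0.63 (SE 0.06) in cKO-E and -1.12 (SE 0.06) in dKO-E from ctrl and of -0.49 (SE 0.07) between dKO-E and cKO-E. Within batch 1 the differences from ctrl were -0.63 and -1.20, and within batch 2 they were -0.65 and -1.0.

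*Rims2* (ENSMUSG00000037386.15 in the counts, ENSMUSG00000037386.16 in GENCODE M21) encodes a RIM protein. In GENCODE M21 it lies on chromosome 15 of GRCm38 from 39198261 to 39684372 on the forward strand. Its ctrl levels were 427, 473, 395 and 507 CPM in A, B, C and D and 481, 463 and 460 in F, H and I. In cKO-E, embryos A to E were at 283, 277, 262, 210 and 274 CPM. In dKO-E, embryos A to G were at 231, 223, 210, 238, 219, 226 and 260 CPM. All mutant embryos lay below all ctrl embryos, while the mutants overlapped each other, and embryo D of cKO-E, the shallowest library, stood apart below the other 4. The log2 difference from ctrl was -0.80 (SE 0.08) in cKO-E and -1.01 (SE 0.06) in dKO-E, and without cKO-E embryo D the former was -0.74. In the batches it was -0.73 and -0.92 for cKO-E and -1.01 and -0.96 for dKO-E. Separation of all embryos in this direction was found for 5.56% of the genes tested in cKO-E against ctrl and 3.22% in dKO-E against ctrl, and nothing is read from *Unc13b* and *Rims2* here because this contrast chose them.

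**Figure D2:**
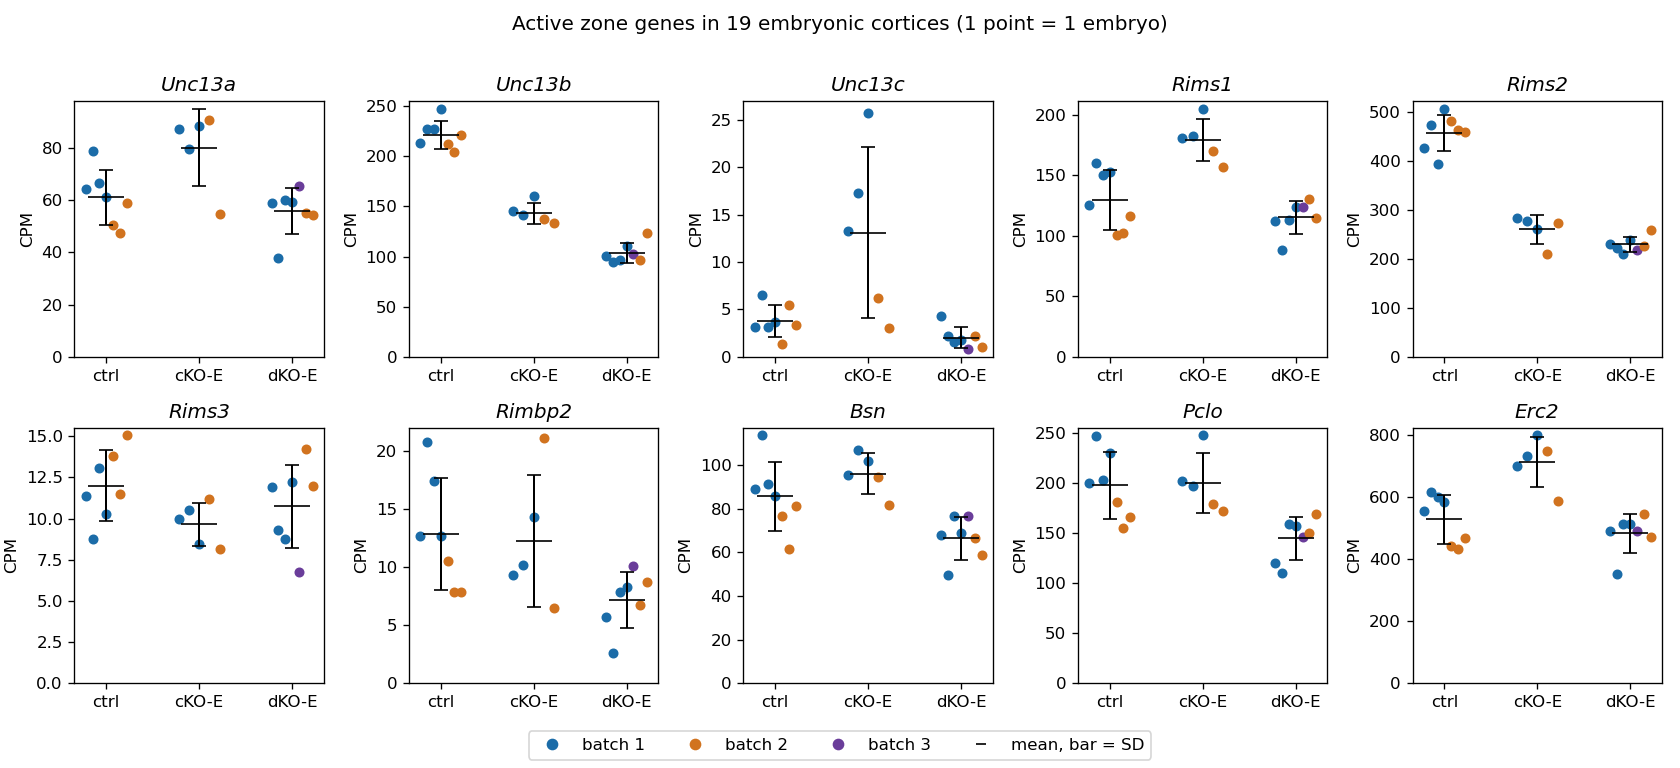
CPM of each of the 10 genes in every embryo, by group, with points coloured by batch and the mean and SD of each group in black. *Unc13b* falls into 3 separate groups around 222, 143 and 104 CPM, while for *Erc2*, *Rims1*, *Pclo*, *Bsn*, *Unc13a* and *Rimbp2* the ctrl points of batch 2 lie below those of batch 1.

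Promoter sequences are shown for *Unc13b* and for *Unc13a* and *Rims1*, the paralogs against which *Unc13b* and *Rims2* are set further on, so that the start regions of a gene lower in both mutants and of paralogs not called lower in either mutant can be read side by side. They are the 250 bases before the start site in RefSeq on GRCm38.p6, at chr4:43058703-43058952 on the forward strand for *Unc13b*, chr8:71671758-71672007 on the reverse strand for *Unc13a* and chr1:22806159-22806408 on the reverse strand for *Rims1*. Of the 10 genes, 9 had an entry in this table and *Rims2* had none. Capitals mark matches, on either strand, to the core of the YY1 site (ATGGC), the CCAAT box (CCAAT), the GC box (GGGCGG) and the E-box (CACGTG), and none of these matches overlapped another.
*Unc13b* promoter: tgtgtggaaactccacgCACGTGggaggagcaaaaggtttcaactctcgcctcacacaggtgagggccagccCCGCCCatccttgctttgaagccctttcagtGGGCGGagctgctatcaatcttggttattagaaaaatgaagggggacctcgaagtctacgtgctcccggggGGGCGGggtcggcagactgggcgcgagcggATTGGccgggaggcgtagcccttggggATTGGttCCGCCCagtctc
*Unc13a* promoter: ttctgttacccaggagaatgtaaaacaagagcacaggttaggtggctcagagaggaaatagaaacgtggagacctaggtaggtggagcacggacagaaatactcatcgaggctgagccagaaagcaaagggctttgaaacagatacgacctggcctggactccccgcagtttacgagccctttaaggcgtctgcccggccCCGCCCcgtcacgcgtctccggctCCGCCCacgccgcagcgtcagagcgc
*Rims1* promoter: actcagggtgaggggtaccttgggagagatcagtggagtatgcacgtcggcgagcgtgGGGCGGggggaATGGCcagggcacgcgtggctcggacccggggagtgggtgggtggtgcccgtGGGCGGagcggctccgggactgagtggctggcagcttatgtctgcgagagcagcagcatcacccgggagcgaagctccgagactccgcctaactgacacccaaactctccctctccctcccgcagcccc
Motifs were counted in windows from 250 bases before to 50 after the start site, and chosen with the *Unc13b* sequence in view. The YY1 core letters occurred in the windows of *Unc13a*, *Rims1*, *Rimbp2*, *Bsn* and *Pclo*, 5 of 9, and in 40.5% of 32851 windows in the table. The matches of *Unc13a* and *Bsn* lay after the start, at positions 37 and 27, so that of *Unc13a* is not in the bases printed above. The window of *Unc13b* held 2 CCAAT boxes, at 46 and 19 bases before the start, and CCAAT letters were also found in *Unc13c* and *Erc2*, with 37.4% of all windows holding them. GC boxes were found in 7 of 9 windows, all but those of *Rimbp2* and *Bsn*, and in 35.7% of all windows. The E-box of *Unc13b*, a sequence present in 7.15% of windows, was the only one among the 9. The windows were between 59.3% and 73.7% G or C, against a median of 52.7% for the whole table. A match is a description of the letters and not of binding.

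*Unc13b* and *Rims2* were also each set against the closest paralog within the same library, a share that does not depend on how libraries were scaled. Of the counts on *Unc13b* and *Unc13a* together, *Unc13b* took 78.5% ± 2.5 in the 7 ctrl embryos (mean ± SD). Its share was 64.4% ± 4.03 in the 5 cKO-E and 65.1% ± 3.89 in the 7 dKO-E embryos. The ctrl embryos ranged from 74.2% to 81.2% and the mutants from 60.1% to 71.4%, without overlap. Of the counts on *Rims2* and *Rims1*, *Rims2* took 77.9% ± 3.71 in ctrl, 59.3% ± 3.52 in cKO-E and 66.6% ± 3.01 in dKO-E. The ctrl embryos ranged from 72.5% to 82.6% and the mutants from 55.2% to 71.7%. Exact 95% binomial intervals of single embryos were at most 14.7 percentage points wide and cover counting error alone. These are shares of counts, not corrected for the different exon lengths of the paralogs, and the fall for which *Unc13b* and *Rims2* were chosen enters them.

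**Figure D3:**
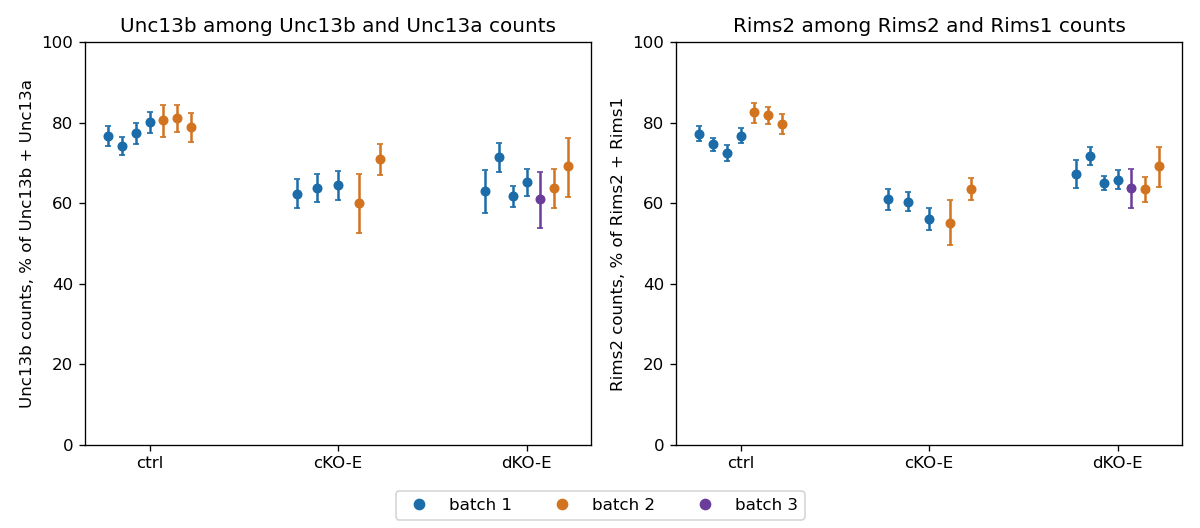
Share of *Unc13b* in the counts on *Unc13b* and *Unc13a* (left) and of *Rims2* in those on *Rims2* and *Rims1* (right), in percent, 1 point per embryo coloured by batch, with exact 95% binomial intervals. Ctrl embryos lie at 74.2% or more on the left and at 72.5% or more on the right, above all mutant embryos.

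The genes whose profile over the 19 embryos lay nearest to those of *Unc13b* and *Rims2* were found among 11331 genes, by the root mean square difference between log2 CPM profiles centred on the ctrl mean. The gene nearest to *Unc13b* was *Rims2*, at 0.163 log2 units. *Ralgapa1* at 0.181, *Ppp1r12b* at 0.198, *Serbp1* at 0.204 and *Psmd5* at 0.208 followed. For *Rims2* the nearest genes were *Serbp1* at 0.148, *Unc13b* at 0.163, *Tet2* at 0.181, *Ralgapa1* at 0.190 and *Rora* at 0.193. The other 8 active zone genes were at 0.538 (*Pclo*) to 1.269 (*Unc13c*) from *Unc13b* and at 0.583 (*Pclo*) to 1.343 (*Unc13c*) from *Rims2*. These distances were not set against those of all genes. All genes were measured in the same libraries, and the fall by which *Unc13b* and *Rims2* were chosen is part of these profiles. Nothing is therefore read from their nearness to each other or their distance from the other 8.

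Whether the 8 genes taken for their function changed in the absence of *Ino80* was tested first in cKO-E against ctrl. *Rims1* and *Erc2* were higher at a false discovery rate of 0.05 and stayed so with any 1 embryo left out, as was *Unc13c*, which passed the filter on low counts only through cKO-E. *Unc13a* was at 0.34 on the log2 scale without passing, and *Rims3*, *Rimbp2*, *Bsn* and *Pclo* lay between -0.30 and 0.14. At the false discovery rate of 0.001 that the study used, 0 of the 8 were called in either direction by edgeR's quasi-likelihood test, where 1.06% of 11660 genes tested were called higher and 2.32% lower. At 0.05, 2 of the 7 genes other than *Unc13c* were higher and 0 lower, where 7.31% of genes tested were higher and 9.88% lower. Without adjustment, p was under 0.05 for 3 of these 7 above ctrl and 0 beneath it, where 14.3% and 15.5% of genes tested were so. DESeq2 called 2 of the 8 higher at 0.001 and the likelihood-ratio test 1, *Unc13c* among them in both, and both called 0 lower. The shares of all genes called by these other tests were not counted. The median log2 difference was 0.14 over the 7 genes and 0.02 over all genes tested.

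*Erc2* (chr14:27622428-28478537, forward strand), which encodes an ELKS family scaffold protein, was at 553, 615, 598 and 584 CPM in ctrl embryos A, B, C and D and at 443, 431 and 467 in F, H and I. The cKO-E embryos A to E were at 698, 733, 800, 747 and 586 CPM. Only embryo E reached into the ctrl range, and the ctrl embryos of batch 2 lay below all those of batch 1. The log2 difference was 0.43 (SE 0.10, adjusted p = 0.00599, edgeR). It was 0.33 within batch 1 and 0.57 within batch 2. With batch as a covariate it was again 0.43 and passed 0.001 (adjusted p = 0.000114, edgeR).

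*Rims1* (chr1:22286251-22805994, reverse strand), which encodes the RIM protein best known for presynaptic plasticity, was likewise higher. Ctrl embryos A to D were at 125, 160, 150 and 153 CPM, and F, H and I at 101, 102 and 116. The cKO-E embryos were at 181, 182, 205, 170 and 157 CPM, of which only E was below the highest ctrl embryo. The log2 difference was 0.45 (SE 0.11, adjusted p = 0.00996, edgeR), 0.35 within batch 1 and 0.60 within batch 2, and with batch as a covariate it was 0.44 and the adjusted p was 0.000181 (edgeR). *Rims2*, the gene chosen for its fall, had a log2 difference of -0.80 in these embryos.

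*Unc13c* (chr9:73479422-73968966, reverse strand) had the largest log2 difference of the 10 genes, 1.77 (SE 0.40, adjusted p = 0.00527, edgeR), and it rested on few counts. The filter asked for 5 embryos at 3.38 CPM or more, unscaled, which 4 cKO-E and 3 ctrl embryos reached, so that the gene was tested only because cKO-E was high. With no such filter, over all genes of at least 1 count, the log2 difference was 1.76 (adjusted p = 4.98e-05, edgeR). The size hardly moved, and nothing is read from the smaller p. Ctrl embryos ranged from 1.32 to 6.51 CPM with a median of 3.36, the lowest from 2 counts, under the limit of 3. The cKO-E embryos A, B and C of batch 1 were at 13.3, 17.3 and 25.7 CPM, from 40, 61 and 70 counts, and D and E of batch 2 at 6.21 and 3.06 CPM, from 5 and 9 counts. The batch 1 embryos were above all ctrl embryos and the batch 2 embryos were within the ctrl range. Without cKO-E embryo C the log2 difference was 1.40, and without E it was 2.05 and passed 0.001.

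*Unc13a* (chr8:71624417-71671757, reverse strand), the main Munc13 gene of excitatory forebrain synapses, was at 47.4 to 79.0 CPM in ctrl with a median of 61.4. In cKO-E it was at 87.3, 79.6, 88.4, 90.7 and 54.7 CPM in embryos A to E, so that 4 embryos were above all ctrl embryos and E was within their range. The log2 difference was 0.34 (SE 0.13, adjusted p = 0.0829, edgeR). *Bsn* and *Pclo*, which encode the large scaffold proteins Bassoon and Piccolo, had log2 differences of 0.14 (adjusted p = 0.44) and 0.01 (adjusted p = 0.972) by the same test. *Rims3* (chr4:120854816-120896579, forward strand), which encodes a short RIM without most RIM domains, was at -0.30 (adjusted p = 0.237), and *Rimbp2*, a RIM-binding protein gene, at -0.30 (adjusted p = 0.504), also by edgeR. Of these, *Rimbp2* had the widest spread in cKO-E, from 6.45 to 21.1 CPM.

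The dKO-E embryos were compared with the same 7 ctrl embryos, so that both comparisons share their controls. *Pclo*, *Bsn* and *Rimbp2* were lower at a false discovery rate of 0.05, and *Unc13a*, *Rims1*, *Rims3* and *Erc2* had small negative differences that did not pass. *Unc13c* had too few counts to be tested, from 1 to 13 per dKO-E library. At 0.001, 0 of the 7 tested genes were called in either direction by edgeR's quasi-likelihood test, where 2.34% of 11381 genes tested were lower and 0.246% higher. At 0.05, 3 of the 7 were lower and 0 higher, where 10% of genes tested were lower and 5.45% higher, and at an unadjusted p under 0.05 the counts were also 3 and 0, where 16.5% of genes tested were lower and 13.1% higher. The likelihood-ratio test called 1 lower at 0.001 and DESeq2 called 0, and their shares over all genes were not counted. The median log2 difference was -0.21 over the 7 genes and -0.40 with *Unc13b* and *Rims2* included, against 0.01 over all genes tested.

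*Pclo* (chr5:14514918-14863459, forward strand) was at 200, 247, 203 and 230 CPM in ctrl embryos A, B, C and D and at 181, 155 and 166 in F, H and I. The dKO-E embryos A to G were at 120, 110, 159, 157, 146, 150 and 169 CPM. All dKO-E embryos were below the batch 1 ctrl embryos, but 3 of them were above ctrl embryo H. The log2 difference was -0.48 (SE 0.11, adjusted p = 0.00473, edgeR). It was -0.69 within batch 1 and -0.09 within batch 2, which held 3 ctrl and 2 dKO-E embryos. Within litter 1, a comparison of 2 ctrl and 3 dKO-E embryos added after seeing the data, it was -0.79 and the adjusted p was 0.0717 (edgeR).

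*Bsn* (chr9:108096022-108190384, reverse strand) was at 61.7 to 114 CPM in ctrl with a median of 85.7, and in dKO-E embryos A to G at 67.8, 49.5, 76.9, 68.9, 76.5, 66.8 and 58.7 CPM. The groups overlapped in the lower part of the ctrl range. Its log2 difference was -0.40 (SE 0.12, adjusted p = 0.0244, edgeR), -0.55 within batch 1 and -0.19 within batch 2. Without ctrl embryo B it was -0.31 (adjusted p = 0.0592, edgeR) and without dKO-E embryo B also -0.31 (adjusted p = 0.0543, edgeR), so that this call at 0.05 was lost without either. *Rimbp2* (chr5:128757791-128953486, reverse strand) had the largest difference of the 7 tested genes, -1.01 (SE 0.26, adjusted p = 0.0116, edgeR), at low levels. Ctrl embryos of batch 1 were at 12.7 to 20.8 CPM and those of batch 2 at 7.82 to 10.5, while dKO-E embryos ranged from 2.64 to 10.1. The difference was -1.36 within batch 1 and -0.23 within batch 2, and -0.80 without dKO-E embryo B. For *Pclo* and *Rimbp2* the call at 0.05 was kept with any 1 embryo left out.

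The remaining genes differed in direction between the batches. *Rims1* had a log2 difference of -0.21 (SE 0.11, adjusted p = 0.201), *Erc2* of -0.14 (SE 0.10, adjusted p = 0.353) and *Unc13a* of -0.18 (SE 0.12, adjusted p = 0.314) by edgeR. Within batch 1 these were -0.45, -0.35 and -0.35, and within batch 2 they were 0.22, 0.19 and 0.07. *Rims3* was at -0.14 (adjusted p = 0.607, edgeR), -0.09 within batch 1 and 0.01 within batch 2. Embryo E of dKO-E, alone in its batch, entered none of these batch values.

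**Figure D4:**
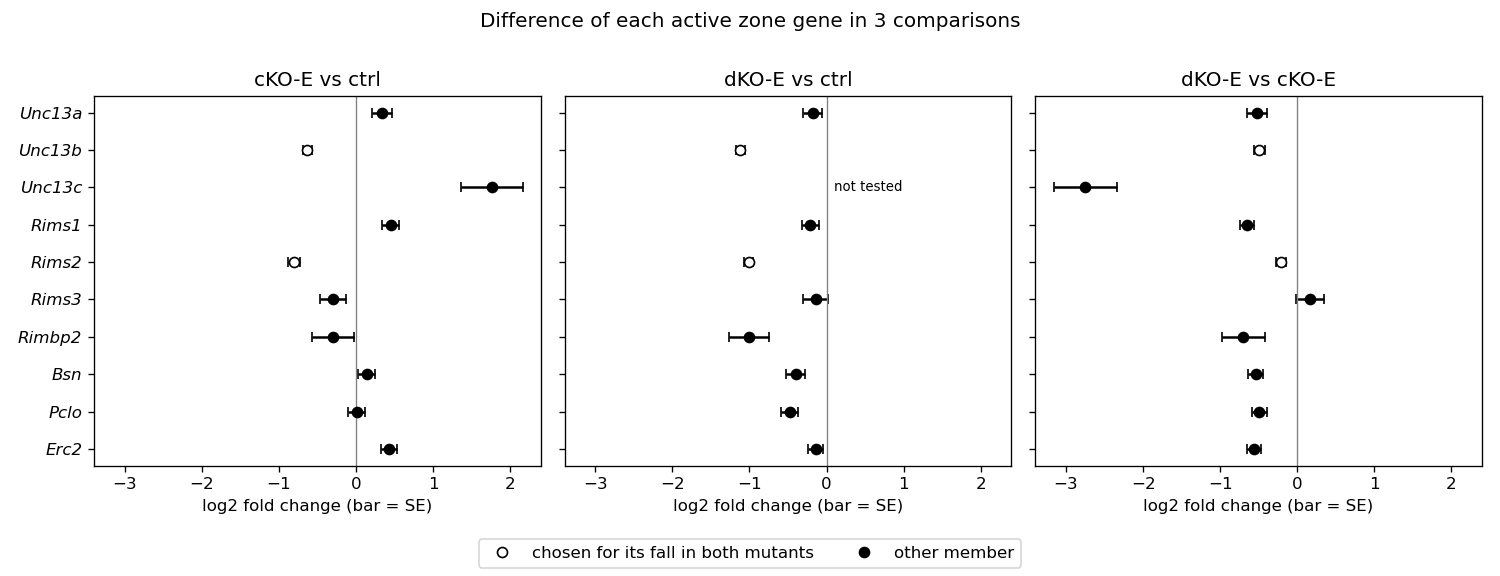
Log2 fold change of each gene (x axis) in cKO-E against ctrl, dKO-E against ctrl and dKO-E against cKO-E, with bars for the SE from edgeR. Open points mark *Unc13b* and *Rims2*, chosen for their fall in both mutants, and filled points the other 8 genes, of which *Unc13c* reaches 1.77 in the left panel and -2.75 in the right.

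Expression in dKO-E was then compared directly with that in cKO-E, with calls at 0.05. Compared with cKO-E, dKO-E had lower levels of 5 of the 7 genes other than *Unc13c* and higher levels of 0, where 9.42% of 11746 genes tested were lower and 5.59% higher. At an unadjusted p under 0.05 the counts were 6 and 0, where 14.8% and 12.7% of genes tested were lower and higher. The 5 were *Unc13a*, *Rims1*, *Bsn*, *Pclo* and *Erc2*, that is, a priming gene, a RIM gene and the scaffold genes. *Unc13c*, which again passed the filter only through cKO-E (4 embryos, with 1 of dKO-E), was at -2.75 (SE 0.41, adjusted p = 0.000144, edgeR), and at -2.73 (adjusted p = 1.21e-13, edgeR) with no such filter. The size of its difference hardly moved while the adjusted p did, and nothing is read from the smaller p. Its dKO-E embryos were at 0.841 to 4.27 CPM (median 1.80), with only cKO-E embryo E, at 3.06, within their range. The log2 differences of the 5 genes were -0.65 for *Rims1* (adjusted p = 4.53e-05), -0.56 for *Erc2* (adjusted p = 0.000362), -0.54 for *Bsn* (adjusted p = 0.00127), -0.52 for *Unc13a* (adjusted p = 0.0101) and -0.49 for *Pclo* (adjusted p = 0.00333), all by edgeR. *Rimbp2* (-0.70, adjusted p = 0.109) and *Rims3* (0.17, adjusted p = 0.632) did not pass. Every dKO-E embryo was below every cKO-E embryo for *Rims1*, *Bsn*, *Pclo* and *Erc2*, and this was so for 4.66% of genes tested. For *Rims2* the difference was -0.21 (SE 0.07).

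The median over the 7 genes was -0.54, against 0.02 over all genes tested. In the same comparison 7 of 16 neuron markers were lower and 0 higher (median -0.30), where 9.42% of genes tested were lower and 5.59% higher. Lower too were 3 of 5 Cajal-Retzius markers (median -0.74) and 4 of 4 interneuron lineage markers (median -0.83). Of the latter, *Dlx1* passed the filter only through cKO-E. The part of these markers in the difference was not tested. The 10 genes together summed to 1710 ± 171 CPM in ctrl (SD, n = 7), 1710 ± 159 in cKO-E (SD, n = 5) and 1220 ± 115 in dKO-E (SD, n = 7), a sum that includes the genes chosen for their fall. In cKO-E this sum was at the ctrl level, while *Rims2* and *Unc13b* were lower and *Erc2* and *Rims1* higher. Within batch 1 alone the 5 genes had log2 differences from -0.79 (*Rims1*) to -0.62 (*Bsn*). Within batch 2 alone, with 2 embryos a group, they were between -0.43 (*Bsn*) and -0.16 (*Pclo*), and 0 passed, with 3 (*Rims1*, *Bsn* and *Erc2*) at an unadjusted p under 0.05. Sex was also unequal, with 4 females and 1 male in cKO-E and 2 and 5 in dKO-E. With sex as a covariate the differences were larger in size, -0.79 for *Rims1*, -0.70 for *Erc2*, -0.65 for *Bsn*, -0.67 for *Unc13a* and -0.70 for *Pclo*. The cKO-E and dKO-E embryos came from different litters throughout, so genotype and litter cannot be told apart in this comparison.

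In bulk cortex, fewer neurons and less RNA per neuron cannot be told apart, so levels of neuronal markers are given beside these results. The summed level of 18 neuron markers was 5770 to 6560 CPM in the ctrl embryos of batch 1 and 4300 to 4900 in those of batch 2. It was 5300 to 6430 CPM over the cKO-E embryos and 3920 to 5290 over the dKO-E embryos. The neuron markers thus differed between batches of ctrl in the same direction as *Erc2*, *Rims1*, *Pclo*, *Bsn*, *Unc13a* and *Rimbp2*, each of which was higher in all 4 ctrl embryos of batch 1 than in all 3 of batch 2. For *Unc13b*, *Rims2*, *Unc13c* and *Rims3* the ctrl batches overlapped. The batch 2 mean was the higher for *Rims2* (468 against 450 CPM) and *Rims3* (13.5 against 10.9 CPM). How many of all genes separate the ctrl batches was not counted, so nothing is read from these separations. Of 17 neuron markers tested in cKO-E, 0 were called at 0.001 and the median log2 difference was 0.20. An unadjusted p under 0.05 was found for 6 above ctrl and 2 beneath it, where 14.3% and 15.5% of genes tested were so. Of 16 tested in dKO-E, 1 was lower at 0.001, 4 at 0.05 and 8 at an unadjusted p under 0.05, with 0 higher at any of these. Over all genes tested in dKO-E, 2.34%, 10% and 16.5% were lower at these levels. The median over the 16 markers was -0.23. The marker past 0.001 was *Map2*, which encodes a dendritic microtubule protein and had a log2 difference of -0.38 (SE 0.07, adjusted p = 0.000696, edgeR). The 11 progenitor markers tested had a median of -0.32 in cKO-E and -0.07 in dKO-E, and 9 of the 11 were below 0 in each. At 0.05, 6 were lower and 1 higher in cKO-E, where 9.88% and 7.31% of genes tested were. *Pax6* (-0.35), *Nes* (-0.34) and *Neurog2* (-0.39) were among the lower, named after their values were seen. The higher one was *Fabp7*, a radial glia gene (0.56, SE 0.08, adjusted p = 0.000182, edgeR). The part of neuronal RNA in the differences of the active zone genes was not tested.

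Markers of other cells were also higher in cKO-E, as *Rims1* and *Erc2* were. Cajal-Retzius cells are early neurons of the cortical surface, and the summed level of 6 of their markers was 545 to 746 CPM in ctrl, 883 to 1010 in cKO-E and 488 to 680 in dKO-E. *Reln*, the reelin gene that defines these cells, was higher in cKO-E (0.62, SE 0.07, adjusted p = 1.13e-05, edgeR), as were *Ebf3* (0.91, SE 0.12, adjusted p = 5.26e-05) and *Trp73* (0.96, SE 0.17, adjusted p = 0.00083). In dKO-E 0 of 5 were called, also at an unadjusted p under 0.05. The summed level of 8 markers of the interneuron lineage, whose cells do not come from Emx1 progenitors, was 9.67 to 87.1 CPM in ctrl, 67.9 to 122 in cKO-E and 30.4 to 72.1 in dKO-E. Of 4 tested in cKO-E, 0 were called at 0.001 by edgeR and 4 were higher at an unadjusted p under 0.05, where 14.3% of genes tested were. Of these 4, *Dlx1* passed the filter only through cKO-E (5 embryos, with 2 of ctrl). *Gad2*, an enzyme gene of GABA synthesis, was at 0.87 (SE 0.30, adjusted p = 0.0544, edgeR). Microglia markers, 10 genes of which 3 were tested in cKO-E, summed to 6.49 to 16.6 CPM in ctrl, 31.9 to 40.0 in cKO-E and 5.89 to 11.6 in dKO-E, and *Mpeg1* (4.70 CPM in cKO-E against 0.899 in ctrl) and *Csf1r* (5.75 against 1.19) were called higher in cKO-E but passed the filter only through cKO-E, whereas the sums of 7 endothelial markers overlapped among all groups. No marker of these 4 lists was at 0 in every library of a group. Whether these cells contributed to the levels of active zone genes was not tested.

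Lists of other synaptic genes, put together by function, were described from the same fits. Among 19 other active zone genes, such as liprins, ELKS and the CASK complex, 15 were tested in cKO-E and 14 in dKO-E. At 0.001, 0 were called in either. At 0.05, 1 was higher and 0 lower in cKO-E, where 7.31% of all genes were higher and 9.88% lower. It was *Apba1* (0.62, SE 0.13, adjusted p = 0.00311, edgeR), named after its value was seen. Its level was 101 to 190 CPM in ctrl and 190 to 280 CPM in cKO-E, so that the groups met. In dKO-E 3 were lower and 1 higher at 0.05, where 10% and 5.45% of all genes were. At an unadjusted p under 0.05, 3 of 15 were higher in cKO-E (14.3% of all genes tested). Of these 3, *Rims4*, like *Unc13c*, passed the filter only through cKO-E (4 embryos, with 3 of ctrl and 5 needed). It was not tested in dKO-E against ctrl, where 5 of 14 genes were lower and 1 higher (16.5% and 13.1% of all genes). Their medians were 0.10 and -0.13. The genes with the highest levels, *Cask* (0.11 in cKO-E and -0.13 in dKO-E) and *Mycbp2* (0.10 and -0.26), did not pass 0.001 in either.

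Among genes of vesicle fusion, 21 of 25 were tested and 1 fell in each mutant, and the genes were a pair of priming factors. *Cadps2* fell in cKO-E (-0.57, SE 0.08, adjusted p = 8.81e-05, edgeR) and was at -0.29 (adjusted p = 0.0368) in dKO-E. *Cadps* fell in dKO-E (-0.55, SE 0.08, adjusted p = 0.000189, edgeR) and was at -0.10 (adjusted p = 0.558) in cKO-E. Both encode CAPS proteins, which share the Munc13 function of preparing vesicles for fusion. The medians of this list were 0.16 in cKO-E and -0.19 in dKO-E.

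Of 16 vesicle protein genes tested, 0 were called in cKO-E, and an unadjusted p under 0.05 was reached by 5 above ctrl and by 0 beneath it. Of all genes tested, 14.3% and 15.5% were so. *Syngr3* of this list passed the filter only through cKO-E (5 embryos, with 2 of ctrl). In dKO-E 2 fell, *Sv2b* (-0.61, SE 0.09, adjusted p = 0.000171, edgeR), a vesicle glycoprotein gene, and *Syn3* (-0.37, SE 0.06, adjusted p = 0.000537), a synapsin gene. In cKO-E *Sv2b* was at 0.58 (adjusted p = 0.00169) and *Syn3* at 0.31 (adjusted p = 0.00601), and the list medians were 0.25 and -0.16.

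The presynaptic calcium channel genes, whose products are held at release sites by RIM and RIM-binding proteins, included a gene that was low in both mutants. *Cacnb2*, a channel beta subunit gene, fell from 313 CPM in ctrl to 159 in cKO-E (-0.96, SE 0.11, adjusted p = 1.32e-05, edgeR) and to 194 in dKO-E (-0.70, SE 0.09, adjusted p = 2.35e-05). *Cacna1b*, the N-type channel gene, rose in cKO-E (0.74, SE 0.13, adjusted p = 0.000743) and was at 0.04 (adjusted p = 0.874) in dKO-E. *Cacna2d3* rose in cKO-E (0.90, SE 0.16, adjusted p = 0.000712) and *Cacna2d1* fell in dKO-E (-0.45, SE 0.08, adjusted p = 0.000694), both auxiliary subunit genes. Of 10 tested, 1 fell and 2 rose in cKO-E and 2 fell and 0 rose in dKO-E, and the medians were 0.29 and -0.22.

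Of 6 presynaptic adhesion genes, 0 were called in either mutant. At an unadjusted p under 0.05, 4 were higher in cKO-E and 2 lower in dKO-E, where 14.3% and 16.5% of genes tested were. The most abundant were *Ptprd*, at 0.41 (adjusted p = 0.0232) in cKO-E and -0.38 (adjusted p = 0.0363) in dKO-E, and *Ptprs*, at 0.04 (adjusted p = 0.74) and 0.09 (adjusted p = 0.487), both receptor phosphatase genes (edgeR). Of 16 postsynaptic scaffold genes, 1 fell and 1 rose in cKO-E and 1 fell in dKO-E. *Gphn*, which encodes gephyrin at inhibitory synapses, fell in both (-0.50, SE 0.07, adjusted p = 8.4e-05 in cKO-E and -0.67, SE 0.06, adjusted p = 9.26e-07 in dKO-E, edgeR). *Dlgap1*, a scaffold gene of excitatory synapses, rose in cKO-E (1.03, SE 0.16, adjusted p = 0.000334) and was at 0.18 (adjusted p = 0.484) in dKO-E. The medians of this list were 0.06 and -0.09. In these lists the count called in each mutant can be read against 2.32% and 1.06% of all genes called lower and higher in cKO-E and 2.34% and 0.246% in dKO-E.

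**Figure D5:**
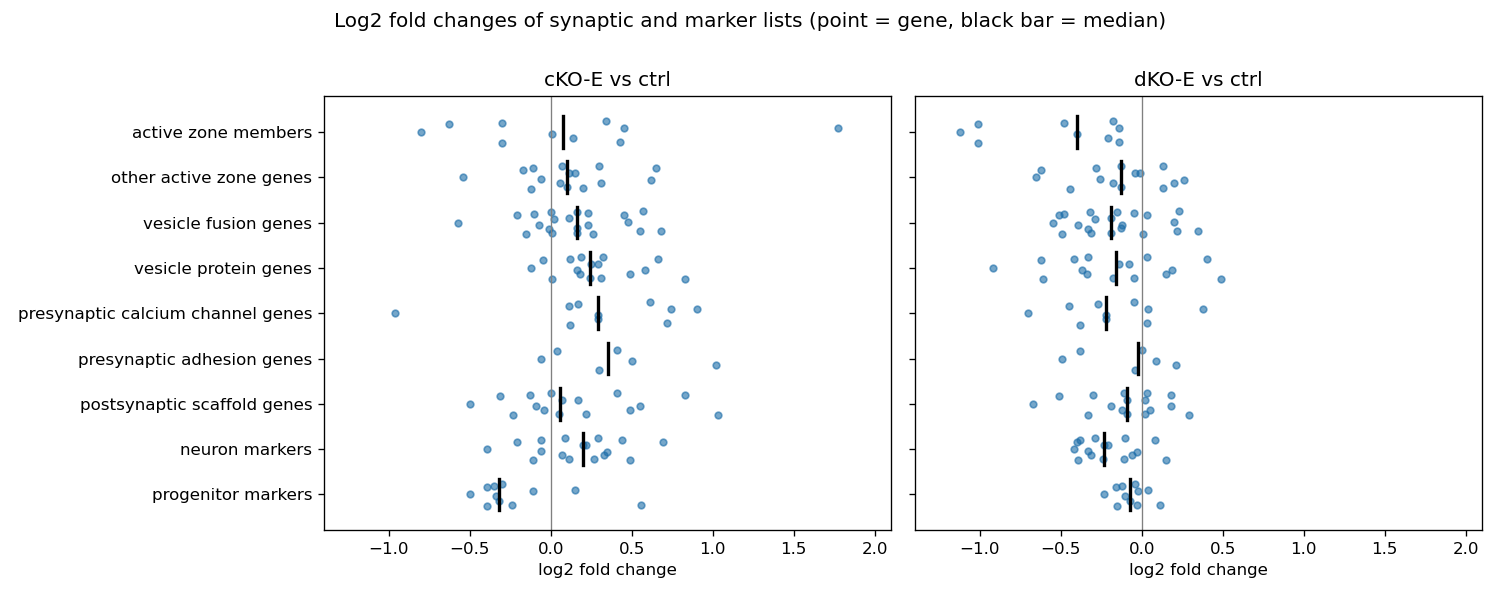
Log2 fold change of each tested gene (x axis) by list, in cKO-E against ctrl (left) and dKO-E against ctrl (right), 1 point per gene with the list median as a black bar. The medians of the upper 6 lists, which hold presynaptic genes, are between 0.08 and 0.35 on the left and between -0.40 and -0.02 on the right, where 0.08 and -0.40 belong to the list that includes *Unc13b* and *Rims2*.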

How the data were processed

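RNA of E13.5 cortex was sequenced as 1 library per embryo by Click-seq after rRNA depletion. The authors deposited counts, whole numbers of reads per gene after removal of duplicates by molecular tag, without normalization. They trimmed reads with cutadapt 1.13, aligned them with STAR 2.5.2a to mm10, removed duplicates with UMI-tools 0.5.3 and counted with HTSeq 0.6.1p1. Whether counting used strand is not given in the sources used here, and 495 bases of *Unc13a* exon (3.92%) overlap *Colgalt1* on the other strand. Of the gene identifiers, 51633 were found in GENCODE M21. Reads without a feature (4.96% to 12.5% of a table), ambiguous reads (1.78% to 2.07%) and reads not aligned uniquely (14.9% to 20.9%) were left out.

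Groups followed the genotype labels. Each comparison was fitted over its 2 groups, without covariates, by edgeR 4.0.16's quasi-likelihood test (R 4.3.3) after filterByExpr at a minimum count of 10 and TMM normalization, with Benjamini-Hochberg adjustment over all genes tested. Calls used a false discovery rate of 0.001 against ctrl, as in the study, and 0.05 for dKO-E against cKO-E. CPM used TMM factors over all 19 libraries, and profiles a prior count of 2. The SE of a log2 difference is its size over the square root of the F statistic. Scripts were tested on simulated data. Alternatives included DESeq2 1.42.0, other scalings and filters, covariates, blocks, single batches and each embryo left out in turn. The members, gene lists and motifs were chosen with earlier results of these data known. Named genes were all members, *Ino80*, *Trp53*, the 5 genes nearest in profile to *Unc13b* and to *Rims2*, and from each list up to 4 genes per direction called against ctrl (smallest p first) or, with none called, the 2 with the highest mean CPM. Genes named for their filter counts, or after their values were seen, are marked so. Figures were drawn with matplotlib 3.10.9.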

Additional observations from a re-analysis of the deposited data

Results flagged for a closer look

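Of the 10 genes in 3 groups, 30 sets of embryos were examined for a single embryo far from the others, and 5 were found, where chance gives about 1 in 20. In dKO-E, embryo B was lowest for *Unc13a* at 37.7 CPM, with the others between 54.4 and 65.6. The same embryo was lowest for *Rims1* at 88.0 CPM (the others 112 to 130) and for *Erc2* at 350 CPM (the others 470 to 546). It also had the lowest sum of neuron markers in its group, 3920 CPM. Without it the log2 difference from ctrl was -0.08 for *Unc13a*, -0.14 for *Rims1* and -0.07 for *Erc2*. In dKO-E, embryo A was highest for *Unc13c* at 4.27 CPM, from 9 counts, with the others between 0.841 and 2.24. In cKO-E, embryo D, the library with the fewest counts, was lowest for *Rims2* at 210 CPM, with the others between 262 and 283.

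The responses of 6 genes differed between the mutants by the direct test, edgeR's quasi-likelihood test of dKO-E against cKO-E. The log2 differences were -2.75 for *Unc13c*, -0.65 for *Rims1*, -0.56 for *Erc2*, -0.54 for *Bsn*, -0.52 for *Unc13a* and -0.49 for *Pclo*, each with dKO-E lower, and *Unc13c* passed the filter on low counts only through cKO-E. Genotype and litter cannot be told apart in them.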

How the results depend on the processing

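For the 8 genes taken for their function, the number called higher in cKO-E at a false discovery rate of 0.001 moved from 0 to 1 with the likelihood-ratio test, with all genes of at least 1 count, with the letter of the label as a replicate block and in batch 1 alone, to 2 with DESeq2 and to 3 with batch as a covariate. With false discovery rates of 0.01 and 0.05 it was 3. In dKO-E the number called lower moved from 0 to 1 with the likelihood-ratio test, sex as a covariate or a false discovery rate of 0.01, and to 3 at 0.05. In dKO-E against cKO-E the number lower was 6, 0 in batch 2 alone and 3 at a false discovery rate of 0.001. These counts include *Unc13c*, and the shares of all genes called in the alternative fits were not counted. With each embryo left out in turn, 0 to 1 were higher in cKO-E (1 without cKO-E embryo E) and 0 lower in dKO-E. In dKO-E against cKO-E, 5 to 7 were lower (5 without dKO-E embryo A, 7 without cKO-E embryo E).

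Signs turned for *Pclo* in cKO-E (-0.08 with the replicate block, -0.04 in batch 1 alone, -0.08 to 0.08 with embryos left out), for *Rimbp2* in cKO-E (0.32 in batch 2 alone), and in dKO-E in batch 2 alone for *Unc13a* (0.07), *Rims1* (0.22), *Rims3* (0.01) and *Erc2* (0.19). Same-lettered embryos of 2 groups correlated in their deviations from the group means at -0.36 to 0.14, so the letter was not taken as a pairing. The log2 differences of *Unc13b* stayed between -0.67 and -0.60 in cKO-E and between -1.20 and -1.0 in dKO-E, and those of *Rims2* between -0.92 and -0.73 and between -1.04 and -0.92, under all alternatives run. Litter as a block could not be fitted for dKO-E against cKO-E. Depth limits *Unc13c*, with 1 to 70 counts per library. The causes of these changes were not tested.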
